A study of Mus musculus with 12 samples.

Results

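Maf and Prdm1, which encode the transcription factors c-Maf and Blimp-1, and Il10 and Il24, which encode 2 cytokines of the IL-10 family, were followed through mouse T helper cell cultures. They were taken by gene symbol, which gave 4 of the 41457 genes listed for each library, and each of the 4 had reads in all 12 libraries. CD4+ T cells of lymph nodes and spleen came from C57BL/6 mice that were wild type (WT) or NFATc1/ΔS, a genotype in which the transcription factor NFATc1 cannot be joined to the small protein SUMO. All cultures received anti-CD3 and anti-CD28; Th1 cultures also had IL-12 and antibody against IL-4, Th2 cultures IL-4 and antibody against IFN-γ, and Th17 cultures TGFβ, IL-6 and both antibodies. RNA was taken at day 2.5 or 3.5, with 1 library for each cell type, genotype and day. The WT and the NFATc1/ΔS library of the same cell type and day form a pair, and the spread among pairs is the replicate error used here. The sources used here do not give the animals' ages, their number or which culture came from which animal, so p values measure the spread between these libraries, which may be technical. Th17 cultures grew in IMDM with less anti-CD3, the others in RPMI, and for Th17 the effects of cell type, medium and anti-CD3 amount cannot be told apart.

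c-Maf is a basic leucine zipper factor of T helper cells that binds the promoters of Il4 and Il10 and is needed for IL-10 in several T cell types. Blimp-1 is a zinc finger repressor best known from plasma cells; in effector T cells it restrains Il2 and Bcl6 and acts with c-Maf in IL-10 production. IL-10 is an anti-inflammatory cytokine that signals through IL-10RA and IL-10RB. IL-24, made by Th2 cells among others, signals through receptors that contain IL-20RB, and its gene lies beside Il10, Il19 and Il20.

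The libraries held 13417121 to 17774400 reads on genes. The T cell markers Cd3d, Cd3e, Cd3g, Cd4 and Trac each stood at 220 CPM or more in all 12 libraries (CPM, read counts scaled to the TMM-adjusted library size). Tbx21 was highest in the 4 Th1 libraries (34.6 to 66.7 CPM) and Gata3 in the 4 Th2 libraries (560 to 738). The library labelled Th1 WT day 2.5 stood apart: across genes it correlated at 0.952 to 0.976 with the Th17 libraries and at 0.929 to 0.952 with the other Th1 libraries. Its partner, Th1 NFATc1/ΔS day 2.5, stood further from the rest, at 0.894 to 0.929 with the other Th1 libraries. It correlated at 0.853 to 0.922 with the Th17 and at 0.819 to 0.861 with the Th2 libraries. Which of these partners gives the differences between them cannot be told from these values. Over 9952 genes, log2 differences between these partners spread with an SD of 0.72, against 0.21 to 0.26 in the other 5 pairs. Genotype was tested over the 4 Th2 and Th17 pairs, a choice made with earlier results of these data known. That choice also left out the Th1 day 3.5 pair, whose SD was 0.21. In that pair all 4 genes were higher in NFATc1/ΔS. Th1 values are given beside the 4-pair test. Counts per gene do not show the changed NFATc1 residues and so check no genotype label.

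The submitters' processing notes name GRCm38, and positions refer to it. Il24 (ENSMUSG00000026420) spans chromosome 1, 130882074 to 130887454, on the minus strand, and Il10 (ENSMUSG00000016529) spans chromosome 1, 131019845 to 131024974, on the plus strand, 132.4 kb away. Maf (ENSMUSG00000055435) lies on chromosome 8, 115682942 to 115707794, and Prdm1 (ENSMUSG00000038151) on chromosome 10, 44437177 to 44528501, both on the minus strand. Values are reads over whole genes, exons and introns together. RefSeq promoter windows (GRCm38.p6) were matched by symbol, and 1 of the 4 genes, Prdm1, had an entry. Its window, chr10:44458699-44458998 on the minus strand, runs from 250 bases before to 50 after an annotated start inside the gene. It is shown because none of the other members had an entry, and the capitals mark the single motif match found.
Prdm1 promoter: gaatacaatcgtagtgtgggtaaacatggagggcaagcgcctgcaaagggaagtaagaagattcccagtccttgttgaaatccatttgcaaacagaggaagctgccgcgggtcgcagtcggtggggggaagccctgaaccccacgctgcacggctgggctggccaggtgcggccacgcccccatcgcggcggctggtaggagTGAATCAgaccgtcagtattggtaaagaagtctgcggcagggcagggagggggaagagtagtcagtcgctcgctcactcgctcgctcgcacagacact
The capitals are an AP-1 motif (TGANTCA), which 7.81% of the 32851 promoter windows of this length hold on either strand. The NFAT core GGAAA (in 61.3% of windows), the c-Maf motif TGCTGA (19.5%), the Blimp-1 core GAAAG (57.3%) and the GATA motif AGATAA (11.2%) had no match there on either strand. These are letter matches in 1 window and were not tested for binding.

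**Figure D1:**
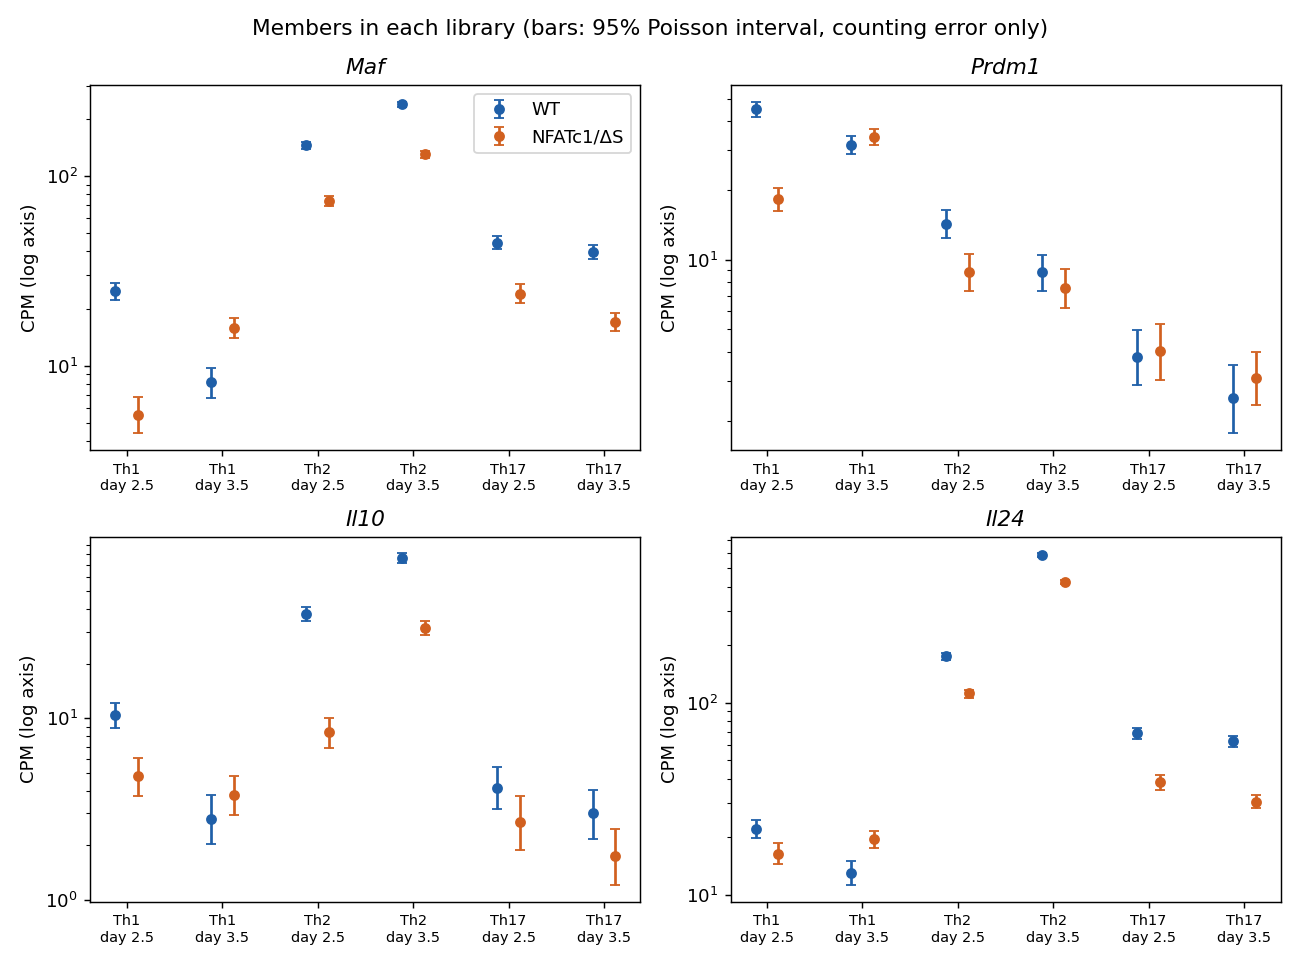
CPM (log axis) of Maf, Prdm1, Il10 and Il24 in each of the 12 libraries, by cell type and day, with WT in blue and NFATc1/ΔS in orange; bars are 95% Poisson intervals of the read count and cover counting error only. Maf, Il10 and Il24 are highest in Th2 and lower in NFATc1/ΔS in each Th2 and Th17 pair, while Prdm1 is highest in Th1.

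Maf was highest in Th2 cells. In Th2 WT it stood at 146 CPM at day 2.5 and 239 at day 3.5, and in Th2 NFATc1/ΔS at 74 and 130. In Th17 WT it stood at 44.4 and 39.9 CPM, and in Th17 NFATc1/ΔS at 24 and 17. In Th1 WT it stood at 24.6 and 8.15 CPM, and in Th1 NFATc1/ΔS at 5.51 and 15.8. No Th2 library overlapped a library of another cell type, whereas the Th1 and Th17 ranges overlapped. The order of the means was Th2 (147 ± 68.3), Th17 (31.3 ± 13) and Th1 (13.5 ± 8.57 CPM, SD over n = 4 libraries that differ in genotype and day).

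Prdm1 had another order, with Th1 above Th2 and Th2 above Th17. The Th1 libraries held 45 (WT day 2.5), 31.6 (WT day 3.5), 18.4 (NFATc1/ΔS day 2.5) and 34.1 CPM (NFATc1/ΔS day 3.5). The Th2 libraries held 14.3 and 8.84 CPM in WT and 8.87 and 7.57 in NFATc1/ΔS. The Th17 libraries held 3.81 and 2.52 CPM in WT and 4.03 and 3.09 in NFATc1/ΔS. The 3 ranges did not overlap, although the Th17 values rest on 36 to 60 reads per library. Means were 32.3 ± 11 in Th1, 9.9 ± 3.02 in Th2 and 3.36 ± 0.689 CPM in Th17 (SD, n = 4).

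Il10 was highest in Th2 WT cells, at 37.6 CPM on day 2.5 and 76.1 on day 3.5. Their NFATc1/ΔS partners held 8.36 and 31.5 CPM. The Th17 libraries held 4.16 and 3.01 CPM in WT and 2.69 and 1.75 in NFATc1/ΔS, from 34 to 59 reads each. The Th1 libraries held 10.4 and 2.8 CPM in WT and 4.79 and 3.81 in NFATc1/ΔS. Only the library labelled Th1 WT day 2.5 reached into the Th2 range, where it lay above Th2 NFATc1/ΔS day 2.5. Means were 38.4 ± 28.1 CPM in Th2, 5.46 ± 3.42 in Th1 and 2.9 ± 0.994 in Th17 (SD, n = 4), and the Th1 and Th17 ranges overlapped.

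Il24 was the most abundant of the 4 per unit of length in every library. It stood at 174 and 587 CPM in Th2 WT at days 2.5 and 3.5, and at 112 and 424 in Th2 NFATc1/ΔS. The Th17 libraries held 69.3 and 63.1 CPM in WT and 38.5 and 30.5 in NFATc1/ΔS. The Th1 libraries held 22 and 13 CPM in WT and 16.3 and 19.4 in NFATc1/ΔS. The ranges of the 3 cell types did not overlap, and the means were 324 ± 221 in Th2, 50.3 ± 18.8 in Th17 and 17.7 ± 3.89 CPM in Th1 (SD, n = 4). On the scale of CPM of exon reads per kb of exon, Th2 WT cells at day 3.5 held Il24 at 392, Il10 at 54.7, Maf at 28.3 and Prdm1 at 1.48. On that scale the Th17 WT library of day 3.5 held Il24 at 41.1, Maf at 4.63, Il10 at 1.66 and Prdm1 at 0.452. The Th1 WT library of day 3.5 held Il24 at 8.37, Prdm1 at 5.36, Il10 at 1.39 and Maf at 0.925.

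Between cell types, all 4 genes were higher in Th2 than in Th17, where 6.37% of 13503 tested genes were higher (11.8% called either way). The difference was largest for Il10, at 3.61 ± 0.58 on the log2 scale (SE; adjusted p = 0.00511 in edgeR's quasi-likelihood test, adjusted by Benjamini-Hochberg, which gives each adjusted p unless another tool is named). Il24 was higher by 2.57 ± 0.48 (edgeR adjusted p = 0.00982), Maf by 2.21 ± 0.38 (0.00729) and Prdm1 by 1.52 ± 0.24 (0.00502). These comparisons used the 12 libraries with genotype by day as 4 blocks. With the 8 Th2 and Th17 libraries alone Il24 had an adjusted p of 0.0561 at 2.48. Leaving out 1 block at a time ended the call of Prdm1 without WT day 2.5 (1.41, 0.0617) or WT day 3.5 (1.44, 0.052), of Il24 without WT day 3.5 (2.25, 0.0537) or NFATc1/ΔS day 3.5 (2.16, 0.0747), and of Il10 without NFATc1/ΔS day 3.5 (3.4, 0.0562).

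Th1 cells had less Maf, Il10 and Il24 and more Prdm1 than Th2 cells, where 14.3% of genes were higher and 13.8% lower in Th1 (28.1% called). The log2 differences were -3.48 ± 0.41 for Maf (edgeR adjusted p = 0.000582), -4.01 ± 0.51 for Il24 (0.000805), -2.69 ± 0.56 for Il10 (0.00869) and 1.7 ± 0.23 for Prdm1 (0.0012). Against Th17 (4.66% called, 1.95% higher in Th1), Prdm1 was higher in Th1 by 3.22 ± 0.25, or 9.34-fold (edgeR adjusted p = 0.00105). The other 3 did not pass against Th17, with Maf at -1.27 (0.0957), Il24 at -1.45 (0.104) and Il10 at 0.92 (0.338); DESeq2 passed Maf (0.00899) and Il24 (0.00972). Without the WT day 2.5 libraries, which include the Th1 library that stood apart, Prdm1 was higher in Th1 by 1.68 than in Th2 (0.0157) and by 3.1 than in Th17 (0.0142). Maf was then lower in Th1 than in Th2 at -3.84 (0.00535), Il24 at -4.35 (0.00573) and Il10 at -3.07 (0.0365). Without NFATc1/ΔS day 3.5, Il10 did not pass between Th1 and Th2 (-2.54, 0.0558), and with only the 8 libraries compared neither Il10 in that comparison (-2.62, 0.0535) nor Prdm1 between Th1 and Th17 (3.21, 0.0557) passed. The 3 comparisons share libraries with one another.

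Markers of other cells moved with cell type too, not all in the same order. The summed level of 7 B cell markers was 35 to 48.2 CPM in Th2, 14.4 to 30.8 in Th17 and 4.24 to 8.85 in Th1 libraries, the same order as Maf and Il24. Pax5 stood at 3.99 to 4.84 CPM in Th2. The 5 plasma cell markers, of which Irf4 and Xbp1 are also T cell genes, summed to 1430 to 1740 CPM in Th2, 805 to 1180 in Th17 and 792 to 957 in Th1. Of the 4 tested, 3 were higher in Th2 than in Th17 and 3 were lower in Th1 than in Th2. Mzb1 held 3.61 to 6.66 CPM in Th2, 0.515 to 1.42 in Th17 and 0.13 to 0.224 in Th1, Sdc1 held 13.7 to 33, 8.87 to 13.8 and 3 to 10 in that order, and Jchain stayed at 0 to 0.381 in all 12 libraries. The 6 dendritic cell markers summed to 5.25 to 8.77 CPM in Th2, 1.8 to 3.17 in Th17 and 0.895 to 2.02 in Th1; Itgax (0.991 to 4.44 in Th2) was at 0.282 CPM or less elsewhere, Flt3 held 1.85 to 3.16 in Th2 and 0 to 0.198 in Th1, and Clec9a was at 0 throughout. Of the 3 tested, Itgax was higher in Th2 than in Th17 (edgeR adjusted p = 0.00597), and Itgax (7e-04) and Flt3 (0.000582) were lower in Th1 than in Th2. The 7 macrophage and monocyte markers summed to 11.8 to 14.7 CPM in Th2, 9.11 to 17.8 in Th17 and 3.67 to 15.7 in Th1. Of the 3 tested, Adgre1 was lower in Th1, where it was at 0, than in Th2 (0.222 to 1.61 CPM, 0.0146), and Csf1r was at 0 to 0.149 in all 12 libraries. The 6 mast cell and basophil markers summed lowest in Th2, at 1.05 to 3.28 CPM. They summed to 5.1 to 36.4 in Th17 and 3.67 to 28.8 in Th1. Of these, Kit was lower in Th2 than in Th17 (-3.44, edgeR adjusted p = 0.0435) and higher in Th1 than in Th2 (3.9, 0.0201). Summed CD8 T and NK cell markers held 24.2 to 34.5 CPM in Th2, 29.1 to 50.2 in Th17 and 21.8 to 52.6 in Th1. The 4 erythroid markers summed to 0.631 to 13.1, 0.979 to 15.3 and 2.05 to 5.15 in that order. The part of such cells in the differences between cell types was not tested. In bulk RNA, fewer expressing cells and less RNA per cell cannot be told apart.

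Maf and Il24 were lower in NFATc1/ΔS than in WT Th2 and Th17 cells. Over the 4 pairs 1.28% of 13086 tested genes were lower in NFATc1/ΔS and 0.68% higher (1.96% in all), and 2 of the 4 genes passed, both lower. Maf was lower by 1.97-fold, at -0.98 ± 0.07 on the log2 scale (SE, edgeR adjusted p = 2.24e-06), with differences from -1.23 to -0.87 in the single pairs. Il24 was lower by 1.66-fold, at -0.73 ± 0.09 (edgeR adjusted p = 0.000904), with pair differences from -1.04 to -0.47. Both were lower in 4 of 4 pairs. Fitted without the pairs as blocks, neither passed (edgeR adjusted p = 0.717 for Maf and 1 for Il24). With the Th1 day 3.5 pair added to the 4 pairs, neither passed, as given below.

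Il10 was also lower in 4 of 4 pairs, at -1.42 ± 0.26, but did not pass (edgeR adjusted p = 0.0836). Its pair differences were unequal, at -2.15 and -1.27 in Th2 and at -0.61 and -0.74 in Th17 at days 2.5 and 3.5. It passed in DESeq2 (adjusted p = 0.0264), in limma-voom (0.00166), on exon reads (0.0356) and without the Th2 day 2.5 pair (-1.05, 0.00218). Prdm1 did not pass, at -0.21 ± 0.16 (edgeR adjusted p = 0.645); it was lower in both Th2 pairs, at -0.68 and -0.22, and higher in both Th17 pairs, at 0.08 and 0.28.

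**Figure D2:**
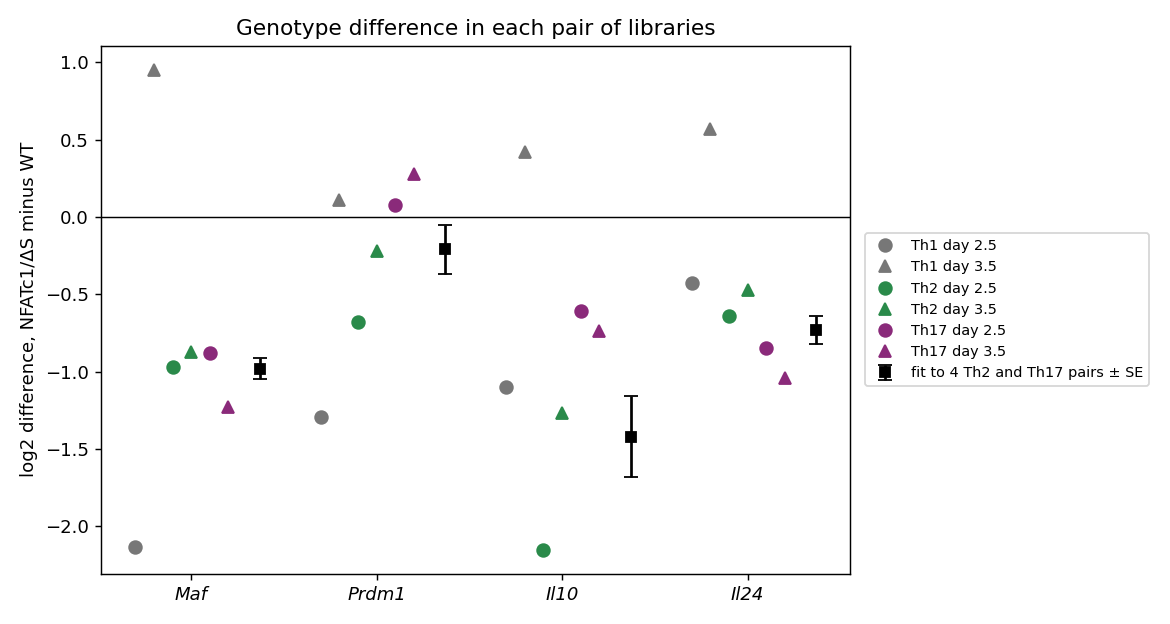
Log2 difference in level, NFATc1/ΔS minus WT, in each of the 6 pairs of libraries (circles day 2.5, triangles day 3.5; grey Th1, green Th2, purple Th17), with the fitted difference over the 4 Th2 and Th17 pairs ± SE as black squares. Maf, Il10 and Il24 lie below 0 in all 4 Th2 and Th17 pairs, and for each of the 4 genes the Th1 pairs lie on both sides of 0.

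Within Th2 cells (0.932% of genes called, 0.718% lower), 3 of the 4 passed. Il10 fell most, at -1.64 ± 0.19, or 3.11-fold (edgeR adjusted p = 0.00617), followed by Maf at -0.92 ± 0.09 (0.000129) and Il24 at -0.55 ± 0.09 (0.00546). Prdm1 stood at -0.47 ± 0.18 (0.369). Without either Th2 library of day 2.5, Il24 stood at -0.47 and no longer passed (0.103 and 0.107).

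Within Th17 cells (1.72% called, 1.02% lower), Maf fell by 2.08-fold, at -1.06 ± 0.1 (edgeR adjusted p = 0.000101), and Il24 by 1.93-fold, at -0.95 ± 0.09 (0.000101). Il10 stood at -0.7 ± 0.33 (0.497) and Prdm1 at 0.18 ± 0.23 (0.874). In a model of all 12 libraries, where the Th1 pairs enter the estimate of the spread, none of these Th2 and Th17 calls held, with adjusted p = 1 for each of them.

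The difference between the cell types in the response to genotype was itself tested (Th17 minus Th2, 0.298% called), and none of the 4 passed with edgeR or DESeq2, although 3 had an unadjusted p under 0.05. Il10 differed by 0.94 ± 0.39 (edgeR adjusted p = 0.771), Prdm1 by 0.65 ± 0.29 (0.771), Il24 by -0.4 ± 0.13 (0.435) and Maf by -0.14 ± 0.14 (0.962). Without either Th2 library of day 3.5, Il10 passed at 1.47 (0.0121 and 0.00549). A change of the genotype response between days was not detected for any of the 4 (edgeR adjusted p from 0.887 to 0.996, 0% of genes called). None had an unadjusted p under 0.05 or passed in DESeq2. That model gave Th2 and Th17 1 shared day effect, so a day response that differed between them entered its error. The differences were -0.05 ± 0.56 for Maf, 0.36 ± 0.32 for Prdm1, 0.61 ± 1.02 for Il10 and 0.16 ± 1.15 for Il24. With SEs of this size the test cannot decide whether the response changed.

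In Th1 cells the pairs of the 2 days went opposite ways for each gene. At day 2.5 NFATc1/ΔS was lower by 2.13 for Maf, 1.29 for Prdm1, 1.1 for Il10 and 0.43 for Il24 on the log2 scale. At day 3.5 it was higher by 0.95 for Maf, 0.11 for Prdm1, 0.42 for Il10 and 0.57 for Il24. The day 2.5 pair holds the WT library that stood apart and its NFATc1/ΔS partner, which correlated less closely than it with every library of the other pairs. Neither edgeR's fit within Th1 nor that over 6 pairs called any of the 4 (0% of genes called in each, and 0 of the 4 in DESeq2), and within Th1 none had an unadjusted p under 0.05. The Th1 result rests on which day is kept: without either library of day 3.5, Maf (-2.16), Prdm1 (-1.3 and -1.29), Il10 (-1.12) and Il24 (-0.43) all passed, with adjusted p up to 0.043, but 5082 to 5086 of 13936 to 13958 genes passed there too. Without either library of day 2.5 none of the 4 did, and 15 to 17 genes passed. Over 6 pairs Maf stood at -0.88 ± 0.3 (edgeR adjusted p = 0.839), Il10 at -1.03 ± 0.28 (0.825), Il24 at -0.5 ± 0.18 (0.839) and Prdm1 at -0.34 ± 0.21 (0.839), the first 3 with an unadjusted p under 0.05. Without the Th1 day 2.5 pair the values were -0.73 for Maf (0.515), -1.15 for Il10 (0.409), -0.55 for Il24 (0.5) and -0.12 for Prdm1 (0.795).

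Some markers of other cells moved with genotype. The summed B cell markers were 42.9 to 48.2 CPM in Th2 WT and 35 to 35.5 in Th2 NFATc1/ΔS, and 22.1 to 30.8 and 14.4 to 20.1 CPM in Th17. Of the 6 tested, Ebf1 passed over the 4 pairs, at -0.9 ± 0.13 (edgeR adjusted p = 0.00259), and Cd79a, Cd79b and Cd22 did not. Of 4 plasma cell, 3 macrophage, 3 dendritic cell, 3 CD8 T and NK cell and 3 erythroid markers tested over the 4 pairs, none passed; Kit, a mast cell gene, did at -0.78 ± 0.18 (0.0423). Within Th17, Ebf1 (-1.21, 0.000395), Kit (-0.99, 0.00365) and Cd8a (-0.97, 0.00344) were lower, and within Th2 the globin gene Hbb-bs was higher (1.55, 0.0214). Their part in the differences was not tested.

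Day changed the cytokines and Maf in Th2 cells, where 13.5% of genes were higher at day 3.5 (28.1% called either way). Il24 rose by 1.84 ± 0.09, or 3.58-fold (edgeR adjusted p = 5.06e-08), and had the second smallest p of all genes tested. Il10 rose by 1.38 ± 0.19 (0.00122) and Maf by 0.76 ± 0.09 (6.22e-05), each in both genotypes. Prdm1 stood at -0.47 ± 0.18 (0.064), lower at day 3.5 in both genotypes; it passed without any 1 of the 4 Th17 libraries (0.0313 to 0.0401).

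In Th17 cells (32.4% called, 16.2% lower) Maf fell between the days by 0.31 ± 0.1 (edgeR adjusted p = 0.0344; 0.096 in DESeq2). Without Th17 NFATc1/ΔS day 2.5 or day 3.5, Maf no longer passed (0.443 and 0.346). Il24 stood at -0.23 (0.0788), Il10 at -0.53 (0.266) and Prdm1 at -0.48 (0.127), all 3 lower at day 3.5 in both genotypes. In Th1 cells (5.7% called) none of the 4 passed with edgeR or DESeq2, and only Il10 had an unadjusted p under 0.05, at -1.11 ± 0.4 (adjusted p = 0.146). The sign for Maf in Th1 turned on the genotype kept, at 1.52 without either WT library and -1.59 without either NFATc1/ΔS library. The difference in the day response between Th17 and Th2 was tested too (1.49% called), and Maf and Il24 passed, at -1.07 and -2.07. In the 12-library model none of the day calls in Th2 and Th17 held, with adjusted p of 0.0859 for Il24, 0.144 for Il10 and 0.495 for Maf in Th2 and of 0.773 for Maf in Th17.

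The reads themselves differed in kind among the 4 genes. Of Maf reads, 61.3 to 70% mapped uniquely, against 98.1 to 100% for the other 3, so some of its reads could belong to other places. On unique reads alone Maf stood at -1.01 ± 0.07 over the 4 pairs (edgeR adjusted p = 6.03e-08). Gm15655, an antisense gene within Maf, held 0 to 3.96 CPM, and strand use in counting is not given in the sources used here, so reads of the 2 cannot be told apart there.

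Intron reads come mostly from RNA not yet spliced. On intron reads alone (0.221% of 8141 genes called over the 4 pairs), Maf was lower by 1.09 ± 0.21 (SE, edgeR adjusted p = 0.00607). That call rests on 8 to 80 Maf intron reads per library. Gm15655, which lies within Maf, held 2.82 to 3.96 CPM in Th2 and 0.773 to 2.26 in Th17, and its part in these intron reads was not tested. Il10, at -0.8 ± 0.26 (0.292), and Il24, at -0.36 ± 0.16 (0.639), did not pass, and Prdm1 had too few intron reads to be tested. Within Th2 (0.319% called) and Th17 (0.209%) none of the 3 passed on intron reads, Maf standing at -0.94 (0.197) and -1.36 (0.199). Introns held 7.36% of Il24 reads in Th2 WT day 3.5 (95% exact binomial interval 6.81 to 7.94) and 14.5% in its NFATc1/ΔS partner (13.6 to 15.4). For Il10 the same libraries held 63 intron reads each, beside 1022 exon reads in WT and 391 in NFATc1/ΔS, or 5.81% (4.49 to 7.37) and 13.9% (10.8 to 17.4). That pair had the widest gap in the share for Il24 among the 4 Th2 and Th17 pairs. In the others Il24 went from 5.42% in WT to 7.69% in NFATc1/ΔS (Th2 day 2.5), from 6% to 7.38% (Th17 day 2.5) and from 9.67% to 13.9% (Th17 day 3.5), each with overlapping intervals. The Th1 pairs went opposite ways, from 12.3% (8.98 to 16.3) to 4.02% (1.94 to 7.26) at day 2.5 and, with overlapping intervals, from 10.6% to 17.1% at day 3.5. For Il10 the intervals overlapped in the other 5 pairs, with 7.1% and 11.5% at Th2 day 2.5, 11.9% and 27.8% at Th17 day 2.5 and a lower share in NFATc1/ΔS at Th17 day 3.5 (27.9% and 20.6%). In Th1 the Il10 share was 13.9% and 26% at day 2.5 and 34.9% and 38.2% at day 3.5. The share over the whole library, WT then NFATc1/ΔS, was 2.93% and 3.98% at Th2 day 3.5 and 3.28% and 4.16% at Th17 day 3.5. It was 2.28% and 2.32% at Th2 day 2.5, 3.02% and 2.5% at Th1 day 2.5 and 3.77% and 4.34% at Th1 day 3.5. In each of these pairs it went in the direction of Il24. At Th17 day 2.5 it went the other way from Il24, from 3.43% to 2.89%. The part of the whole-library share in the shares of Il10 and Il24 was not tested.

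**Figure D3:**
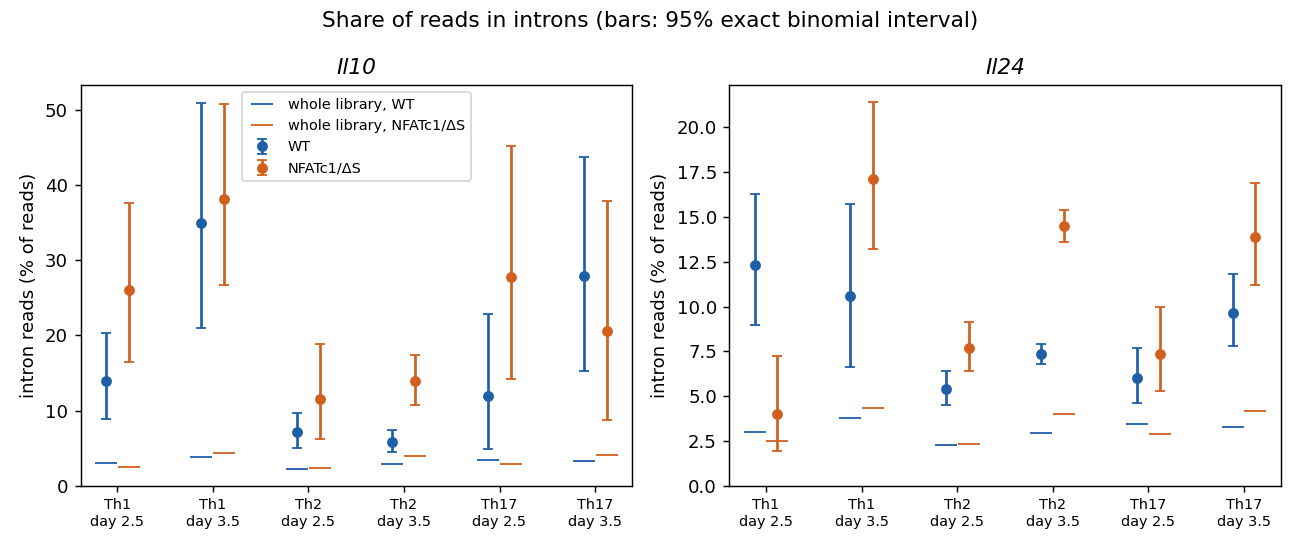
Percent of the reads of Il10 and Il24 that lie in introns, per library, for WT (blue) and NFATc1/ΔS (orange), with 95% exact binomial intervals; short horizontal marks show the share over all genes of the same library. At Th2 day 3.5 the share of Il24 is 7.36% in WT and 14.5% in NFATc1/ΔS, and whole-library shares run from 2.28 to 4.34%.

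On chromosome 1 the genotype difference was tested for the neighbours of Il10. Of 21 genes with reads within 300 kb, 10 were tested over the 4 pairs, and Il24 alone of these passed. Mapkapk2, a kinase gene 28.7 kb from Il10, stood at -0.27 ± 0.07 (edgeR adjusted p = 0.0701), and Fcmr, which encodes an IgM receptor and lies next to Il24, at -0.4 ± 0.13 (0.147). Il19 and Il20, the IL-10 family genes between Il24 and Il10, stayed at 0 to 0.491 and 0 to 0.139 CPM in the 12 libraries. Between Th2 and Th17, Mapkapk2 was higher in Th2 by 0.54 (0.012) and Rassf5 by 0.48 (0.0107), smaller values than the 3.61 of Il10 and 2.57 of Il24. Around Prdm1, Crybg1 and the autophagy gene Atg5 were tested over the 4 pairs and neither passed (0.373 and 0.991).

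**Figure D4:**
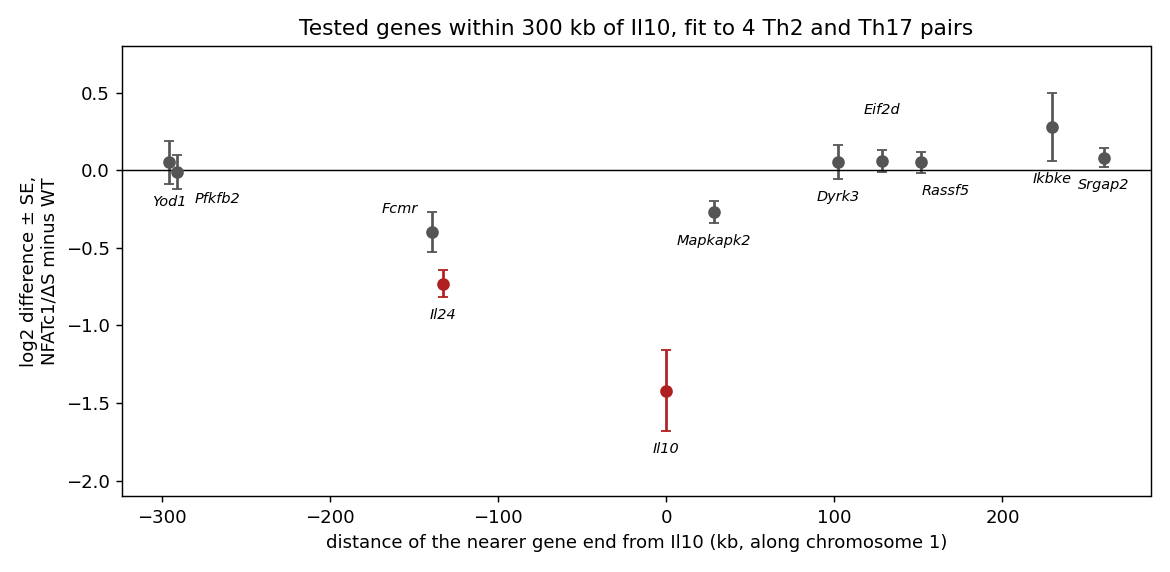
Fitted log2 difference, NFATc1/ΔS minus WT, over the 4 Th2 and Th17 pairs (± SE) for Il10, Il24 and the other 9 tested genes within 300 kb of Il10, against the distance from Il10 in kb. Il10 (-1.42) and Il24 (-0.73) have the lowest values, and the other 9 lie between -0.4 and 0.28.

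Of the wider IL-10 family, Il22 stayed at 0 to 1.2 CPM and Ifnl2 and Ifnl3 at 0.112 CPM or less. Among the 7 receptor genes, 3 were tested over the 4 pairs and none passed. Il10ra, the ligand-binding chain for IL-10, stood at -0.06 ± 0.06 (edgeR adjusted p = 0.735) and Il10rb, the chain shared within the family, at 0.07 ± 0.08 (0.776). Il20rb, a chain of the IL-24 receptors, stood at 0.35 ± 0.19 (0.442) from a level of 0.521 to 5.41 CPM. None of the 8 tested genes of the Maf family and its partners passed; Bach1, a partner of the small Maf proteins, stood at 0.24 ± 0.11 (0.33) and Mafg at -0.11 ± 0.08 (0.617).

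Of 26 tested genes known to induce Maf, Prdm1 or Il10 in T cells, 2 were lower over the 4 pairs and none higher (median -0.03, against 0 for all genes, of which 1.28% were lower and 0.68% higher). They were Il12rb2, a chain of the IL-12 receptor, at -0.54 ± 0.07 (edgeR adjusted p = 0.000431), and the AP-1 factor Batf at -0.27 ± 0.06 (0.032). Rbpj, the DNA-binding factor of Notch signals, stood at -0.27 ± 0.09 (0.136) and Nfil3 at -0.17 ± 0.06 (0.192). Between Th2 and Th17, 8 of the 26 were higher in Th2 and 3 lower, against 6.37% higher and 11.8% called of all genes, with Gata3 at 3.23 ± 0.16 (4.53e-05), Batf at 2.27 ± 0.15 (9.19e-05), Il4ra at 1.41 ± 0.14 (0.000601) and Icos at -1.74 ± 0.19 (0.000754). Of 6 repressors of Il10 or Prdm1, none passed for genotype, with Bhlhe40 at -0.16 ± 0.07 (0.307) and Bcl6 at -0.14 ± 0.17 (0.798).

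Among 10 tested genes linked to c-Maf in T cells, 1 was lower and none higher over the 4 pairs (median -0.24), beside 1.28% of all genes lower. Ccr6, a chemokine receptor gene, stood at -0.5 ± 0.15 (edgeR adjusted p = 0.122) and Il1r1, an IL-1 receptor gene, at -0.56 ± 0.21 (0.239), and neither passed. Among 12 genes that Blimp-1 represses, 1 was higher and none lower (median 0.08, with 0.68% of all genes higher): Fos, at 0.67 ± 0.08 (0.000357). Within Th17, where Prdm1 did not pass, 3 of these 12 were higher. Of all genes there, 1.72% were called either way and 1.02% were lower. Among the 3 were Fos at 0.72 ± 0.12 (edgeR adjusted p = 0.00547) and Tcf7, a factor of naive T cells, at 0.46 ± 0.08 (0.0103).

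Of 12 genes for surface proteins that T cells express together with IL-10, 3 were lower over the 4 pairs and none higher (median -0.28, with 1.28% of all genes lower and 0.68% higher): Pdpn (podoplanin) at -2.64 ± 0.28 (edgeR adjusted p = 0.00015), the inhibitory receptor Ctla4 at -0.53 ± 0.07 (0.000508) and Entpd1, the ectoenzyme CD39, at -0.68 ± 0.11 (0.00383). Procr stood at -0.75 ± 0.28 (0.229). Within Th2 (0.718% of all genes lower), 4 were lower, among them Ctla4 at -0.55 ± 0.09 (0.00854), Tigit at -0.57 ± 0.09 (0.00854) and Entpd1 at -0.82 ± 0.14 (0.0119). Within Th17 (1.02% lower), 2 were lower: Pdpn at -2.96 ± 0.27 (6.32e-05) and Ctla4 at -0.51 ± 0.09 (0.0101).

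Genes whose level followed each of the 4 most closely are given as a description. Pearson's r of log2 CPM was taken across libraries that differ in cell type, day and genotype, so it includes differences between these groups. Across 12 libraries and 9509 genes, Maf was followed by Upp1 (r = 0.978), Armcx4 (0.974) and Cdh17 (0.97), with Il24 at rank 15 (0.956). Il24 was followed by Abtb2 (0.979), Armcx4 (0.966) and Mgll (0.966), with Maf at rank 13. Il10 was followed by Sytl3 (0.966), Ugp2 (0.945) and Ddc (0.934), with Maf at 0.811 and Il24 at 0.818. Prdm1 was followed by Dynlt1b (0.931), Tbkbp1 (0.922) and the granzyme gene Gzmb (0.906), and its r was -0.294 with Maf, 0.191 with Il10 and -0.366 with Il24.

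Across the 8 Th2 and Th17 libraries alone, Maf stood at rank 5 of 9546 genes for Il10 (r = 0.979), behind Etv6 (0.985), Cdh17 (0.984) and Mlkl (0.981) among others. Maf was followed by Cdh17 (0.992), Mlkl (0.992) and Pmepa1 (0.991), and Il24 by Mvp (0.997), Tbc1d2 (0.992) and Plin2 (0.989). Prdm1 was followed by Tut7 (0.989), Dpf2 (0.986) and Kremen2 (0.986), and in these libraries its r with Maf was 0.825.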

How the data were processed

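Poly(A) RNA of 12 libraries was sequenced. Per the file headers, the deposited tables give read counts per Ensembl gene (all, unique, exon and intron reads) and exon length. Gene reads equalled exon plus intron reads in 12 of 12 tables. Aligner and counter are not given in the sources used; the build is GRCm38 per the submitters' processing notes. The deposited RPKM and TPM were not used. Levels per length were computed here from the exon reads and the deposited exon length.

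The test was edgeR's (4.0.16, in R 4.3.3: TMM, filterByExpr with min.count 10 and min.total.count 15, robust quasi-likelihood, Benjamini-Hochberg over all genes tested, threshold 0.05). SEs were taken from the F statistic (absolute log2 difference over its square root), and a prior count of 2 entered log2 CPM. Genotype used cell type by day as blocks; effects within Th2 or Th17 and of day came from 1 model of their 8 libraries, Th1 from all 12. Positive values are higher in NFATc1/ΔS, at day 3.5 or in the cell type named first. On simulated counts, with 200 genes changed, the 4-pair test recovered 94.9% of 2-fold and 84% of 1.5-fold changes over 12491 genes. The test within Th2 recovered fewer, at 84% of 2-fold and 63% of 1.5-fold changes over 12493 genes. All genes were simulated with 1 shared spread, near the coefficient of variation fitted to the 8 libraries (7.97% for the 4 pairs). Each change was the same size in every changed pair, and only genes with a mean of 10 reads or more entered. Real genes differ in spread, so these shares need not hold for them. Recovery for genes with unequal pair differences, such as Il10, was not tested.

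Named were the 4 genes, per list up to 4 genes of smallest unadjusted p, and the 3 nearest by correlation among genes with mean log2 CPM of at least 2. Single markers of other cells given by level or within 1 cell type were chosen after their values were seen. Some listed genes are not reported here. Members and lists were chosen with earlier results of these data known. As alternatives, DESeq2 1.42.0, limma-voom (limma 3.58.1), RLE size factors, other filters and read classes, other sets of libraries, no blocks and left-out libraries were run. The intron-read fits and the test of the day difference between cell types were added after values were seen. Intervals cover counting error only, and reads carry no molecular identifiers.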

Additional observations from a re-analysis of the deposited data

Results flagged for a closer look

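The response to day differed between Th17 and Th2 cells for 2 of the 4 genes, in a test added after the values were seen (1.49% of genes called). From day 2.5 to day 3.5, Maf rose in both Th2 genotypes and had lower values in both Th17 genotypes, a difference of -1.07 ± 0.14 on the log2 scale (Th17 minus Th2, edgeR adjusted p = 0.00124). For Il24 the difference was -2.07 ± 0.13 (edgeR adjusted p = 1.93e-06). Without each of the 8 libraries in turn, both passed. Il10 showed the same signs at -1.91 ± 0.38 but missed the threshold (edgeR adjusted p = 0.0615; 3.17e-07 to 0.371 without each library), and Prdm1 did not differ beyond its error, at 0 ± 0.23 (0.998).

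In Th1 cells the NFATc1/ΔS minus WT difference had opposite signs at the 2 days for each gene, with 1 pair per day, and the change of sign was not tested. Maf went from -2.13 at day 2.5 to 0.95 at day 3.5, Prdm1 from -1.29 to 0.11, Il10 from -1.1 to 0.42 and Il24 from -0.43 to 0.57. The day 2.5 pair holds the library labelled Th1 WT day 2.5, which correlated more closely with Th17 than with the other Th1 libraries. Its NFATc1/ΔS partner correlated at 0.894 to 0.929 with the other Th1 libraries and at 0.853 to 0.922 with Th17. The part of either library in the change of sign was not tested.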

How the results depend on the processing

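Of 789 values of the 4 genes under alternatives, 703 kept their direction and side of the threshold, 32 lost and 30 gained a call, and 24 changed sign. Over the 4 pairs Il10 passed at -1.25 in DESeq2, -1.46 in limma-voom, -1.42 with no filter and with no robust fit, and -1.53 on exon reads. With no replicate block, Maf (-0.98, adjusted p = 0.717) and Il24 (-0.72, adjusted p = 1) did not pass, and intron reads gave Il24 -0.36. Leaving out each pair gave Il10 -1.52 to -1.05 and Prdm1 -0.33 to 0.02.

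In 1 model of all 12 libraries the calls were lost in Th2 for Maf (-0.92), Il10 (-1.7) and Il24 (-0.56), in Th17 for Maf (-1.06) and Il24 (-0.95), and for day at 0.76 (Maf), 1.44 (Il10) and 1.84 (Il24) in Th2 and -0.32 (Maf) in Th17. Intron reads, with fewer genes and reads, gave no call in Th2 for Maf (-0.94), Il10 (-0.92) or Il24 (-0.16) or in Th17 for Maf (-1.36) or Il24 (-0.63). Leaving out each library gave Il24 in Th2 -0.64 to -0.47. In Th17 the day call of Maf was lost in DESeq2 (-0.34) and limma-voom (-0.3) and ranged from -0.53 to -0.16 without each library; Il24 passed on exon reads (-0.3). In Th2, Prdm1 passed for day on unique reads (-0.48) and ranged from -0.7 to -0.23.

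For the Th17 minus Th2 response, leaving out each library gave Maf -0.31 to 0.04 and Il10 0.58 to 1.47. For the change of the response between days, Maf was 0.12 on unique reads and 0.87 with 12 libraries, and without each pair Maf ranged from -0.29 to 0.07, Prdm1 from -0.1 to 0.68, Il10 from -0.54 to 0.99 and Il24 from -0.31 to 0.28. In Th1, leaving out each library gave genotype ranges of -2.16 to 0.96 (Maf), -1.3 to 0.11 (Prdm1), -1.12 to 0.44 (Il10) and -0.43 to 0.58 (Il24), and day ranges of -1.59 to 1.52, -0.51 to 0.89, -1.89 to -0.33 and -0.76 to 0.25 in the same order.

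Between cell types, leaving out each block gave Th2 over Th17 1.41 to 1.7 (Prdm1), 3.09 to 4.11 (Il10) and 2.16 to 2.97 (Il24), and Th1 over Th2 -3.19 to -2 (Il10). With only the 8 libraries compared, calls were lost for Il24 in Th2 over Th17 (2.48), Il10 in Th1 over Th2 (-2.62) and Prdm1 in Th1 over Th17 (3.21). DESeq2 added Maf (-1.29) and Il24 (-1.45) in Th1 over Th17. Apart from construction, the cause of these changes was not tested.

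Counts over all genes moved further. Calls ran from 3 to 630 over the 4 pairs (main 257), 0 to 25 over 6 pairs (0), 0 to 357 in Th2 (122), 0 to 501 in Th17 (225), 0 to 5086 in Th1 (0), 0 to 167 for the Th17 minus Th2 response (39) and 0 to 169 for its change between days (0). For day they ran from 0 to 4347 in Th2 (3679), 0 to 4533 in Th17 (4236) and 261 to 6262 in Th1 (769). Depth limits Prdm1 and Il10 in Th17, at 34 to 60 reads per library.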
